A study of Homo sapiens with 3 samples.

Results

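Occupancy of the PRCC-TFE3 fusion protein at genes of the SWI/SNF chromatin remodeling complexes was described from HA-PRCC-TFE3 ChIP-seq peaks at 5 genes, namely *ARID2*, *ARID1A*, *SMARCA4*, *PBRM1* and *SMARCB1*. The cells were HK-2, a human cell line established from the proximal tubule of the kidney, in which doxycycline induces HA-tagged PRCC-TFE3. All cells, including those of the input DNA, were treated with 0.2 µg/mL of doxycycline for 24 h. Chromatin was cut with micrococcal nuclease and precipitated with an antibody against HA, which gave 2 HA-PRCC-TFE3 ChIP libraries, replicate 1 and replicate 2, beside 1 input DNA library. Whether the cells were a single clone is not given in the sources used here. No library from cells without doxycycline was analysed here, input DNA served as the background, and no deletion of *ARID2* is given for these cells. A peak was assigned to a gene when it overlapped the gene or the 10 kb on either side of it, by hg19 positions, which is the build that the submitters' processing notes name. The genes extended from 46123620 to 46301819 on chromosome 12 for *ARID2*, 27022522 to 27108601 on chromosome 1 for *ARID1A*, 11071598 to 11172958 on chromosome 19 for *SMARCA4*, 52579368 to 52719866 on chromosome 3 for *PBRM1* and 24129150 to 24176705 on chromosome 22 for *SMARCB1*. All of them lie on the plus strand except *PBRM1*. By this rule, 48 of 109205 narrowPeak peaks belonged to the 5 genes in replicate 1 and 38 of 81300 in replicate 2. Merging overlapping peaks of both replicates gave 50 regions out of 117702, and 34 of them held a peak of each replicate, which is called shared below. Of all 117702 regions, 59.8% were shared, and the counts of shared regions per gene below stand beside that share. RNA was not measured in these libraries, so the values describe occupancy alone.

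SWI/SNF complexes are molecular machines that slide nucleosomes along the DNA or eject them, and they act at many promoters and enhancers. SMARCA4 is an ATPase that serves as their motor, and SMARCB1 is a core subunit. ARID1A belongs to the BAF form of the complex, whereas ARID2 and PBRM1 belong to the PBAF form, and all of these genes are known tumor suppressors in some cancers. TFE3 belongs to the MiT/TFE family of basic helix-loop-helix leucine zipper factors, which bind E-box sequences with the core CACGTG, and the fusion with PRCC keeps that DNA-binding part.

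Promoter sequences are shown for the genes whose peaks lay closest to the start, so that the E-box of the factor can be looked for beside the binding. They were taken from RefSeq in build GRCh38.p14, from 250 bases before to 50 bases after a listed start, and read 5′ to 3′ along the gene. The table held 6 starts for 4 of the 5 genes, and *ARID2* was not among them. For genes with several starts the most upstream one is printed, and the letters were not aligned with the peaks, which are in hg19. Capitals mark the E-box core CACGTG, which reads the same on both strands. The sequences are *PBRM1* at chr3:52685864-52686163 on the minus strand, *SMARCA4* at chr19:10960780-10961079 on the plus strand and *SMARCB1* at chr22:23786716-23787015 on the plus strand.
PBRM1: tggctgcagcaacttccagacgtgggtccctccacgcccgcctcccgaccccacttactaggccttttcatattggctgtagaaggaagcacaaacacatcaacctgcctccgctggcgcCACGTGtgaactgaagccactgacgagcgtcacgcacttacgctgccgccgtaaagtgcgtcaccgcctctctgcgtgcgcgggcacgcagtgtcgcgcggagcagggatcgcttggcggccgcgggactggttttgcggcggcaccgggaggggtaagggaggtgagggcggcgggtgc
SMARCA4: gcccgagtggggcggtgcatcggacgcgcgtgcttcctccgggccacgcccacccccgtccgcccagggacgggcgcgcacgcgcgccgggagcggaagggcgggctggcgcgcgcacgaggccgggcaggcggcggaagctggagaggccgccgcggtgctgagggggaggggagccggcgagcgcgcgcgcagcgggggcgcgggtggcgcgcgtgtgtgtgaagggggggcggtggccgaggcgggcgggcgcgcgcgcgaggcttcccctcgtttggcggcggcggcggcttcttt
SMARCB1: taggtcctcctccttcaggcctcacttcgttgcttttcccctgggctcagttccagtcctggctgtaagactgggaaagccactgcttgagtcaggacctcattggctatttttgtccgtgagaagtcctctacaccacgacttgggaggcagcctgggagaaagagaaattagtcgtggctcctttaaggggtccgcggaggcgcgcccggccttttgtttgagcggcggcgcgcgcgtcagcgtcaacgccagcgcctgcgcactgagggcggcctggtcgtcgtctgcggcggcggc
CACGTG was present in 1 of the 6 starts, in the upstream *PBRM1* promoter at -130 bases from the listed start, compared with 7.26% of all 35116 promoters in the table. The longer forms TCACGTGA and TCATGTGA, searched on both strands, were present in 0 of the 6 starts, compared with 0.98% and 1.0% of all promoters. TCACGTGA contains CACGTG, so these searches overlap. The matches describe letters and not binding sites.

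The first question was whether the promoters were occupied. All 5 genes had a peak within 1 kb of the start in both replicates. No input DNA peak was present in any of these windows. The input list held only 286 peaks in the whole genome, so their absence from 5 windows tells little. Across the genome, 7.09% of all 2001 bp windows held a peak of replicate 1, 5.35% a peak of replicate 2, and 4.81% a peak of both. That share covers all sequence and not promoters alone, since promoters of other genes were not placed in hg19 here. Fold enrichment, the ratio of ChIP signal over background that the authors' peak caller gave at the summit, was highest in the *SMARCA4* promoter, where the replicates had 25.9 and 23.0. Next came *SMARCB1* with 14.8 and 14.5, *ARID2* with 12.0 and 15.3, *PBRM1* with 11.8 and 10.3, and *ARID1A* with 9.09 and 6.42. The fold enrichments of *SMARCA4* lay above those of all the other promoters in both replicates. *SMARCB1* and *ARID2* could not be ordered, because the *ARID2* values lay on both sides of the *SMARCB1* values. The values of *PBRM1* lay below those of *ARID2* and above those of *ARID1A* in both replicates. Peaks were called on this measure, so the order is a description and no test was made of it.

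**Figure D1:**
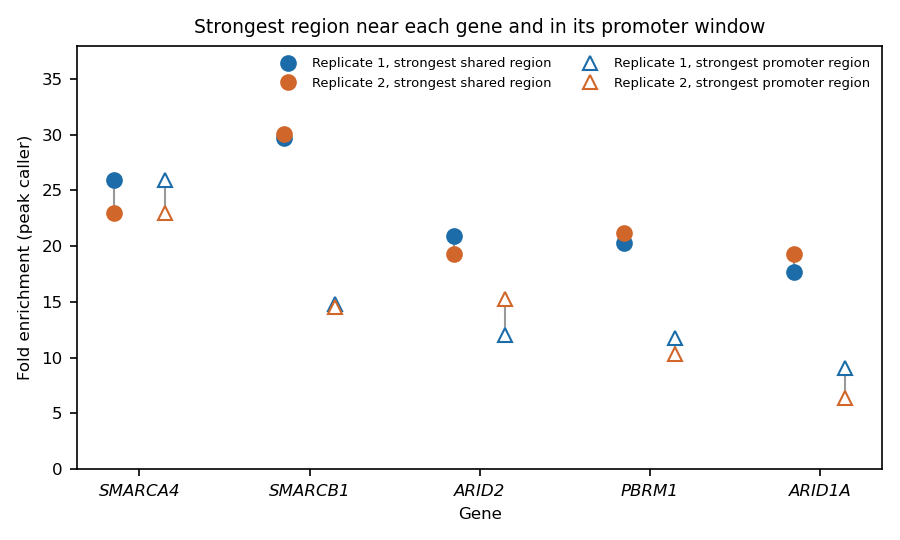
Fold enrichment given by the peak caller (y axis) for each gene (x axis), with filled circles for the strongest shared region of the gene and its flanks, open triangles for the strongest shared promoter region, and a line joining replicate 1 (blue) and replicate 2 (orange). For *SMARCA4* both are the same region, at 25.9 and 23.0, whereas for *SMARCB1* the strongest region, at 29.7 and 30.1, lay outside the promoter, where the values were 14.8 and 14.5.

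At *SMARCA4*, which encodes the ATPase BRG1, the summit lay almost on the start. The region extended on chromosome 19 from 11071268 to 11071806, with summits at -18 bp and -5 bp from the start in replicates 1 and 2. Its fold enrichment lay at percentile 97.6 of the replicate 1 peaks and 96.9 of the replicate 2 peaks. At the BED peak of this site, 56 tags were counted in replicate 1 (95% exact Poisson interval, 42.3 to 72.7) and 38 tags in replicate 2 (26.9 to 52.2). Scaled to 10000000 tags of the library, these were 45.8 and 51.2 tags. Input DNA had 3 tags in the same windows. ChIP over input was therefore 33.1 (exact interval, 10.8 to 165.0) in replicate 1 and 37.0 (11.8 to 188.0) in replicate 2. At the *SMARCB1* promoter peak that had 1 input tag, it was 51.4 (8.53 to 2100.0) in replicate 1 and 84.8 (14.1 to 3460.0) in replicate 2. The *SMARCA4* values lie within those intervals, so ChIP over input does not place *SMARCA4* first. These intervals, and all others on tags, cover counting error only.

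*SMARCA4* also had regions outside the promoter. Upstream, a region at -6.6 kb had fold enrichments of 19.5 and 10.4, and beside it one at -6.2 kb had 5.17 and 5.62. Inside the gene, a region at 8.1 kb had 18.2 in replicate 1 and 11.4 in replicate 2, and regions at 37.3 kb and 75.2 kb had values between 7.52 and 9.62. These 6 regions, promoter included, were the shared ones of 10 in all. The remaining 4 were present in 1 replicate only, with fold enrichments from 3.51 to 5.52. The region at 37.3 kb had the most input DNA tags of all member peaks, with 5 tags beside 22 ChIP tags in replicate 1 and 12 in replicate 2.

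At *SMARCB1*, the core subunit gene, the strongest region of all 5 genes was found, but it lay past the end of the gene. It extended on chromosome 22 from 24181006 to 24181683, 4.7 kb beyond the gene end, with fold enrichments of 29.7 and 30.1 and summits that differed by 1 bp between the replicates. These values lay at percentiles 98.9 and 99.3 of the respective list. The tags numbered 69 in replicate 1 (53.7 to 87.3) and 54 in replicate 2 (40.6 to 70.5), with 2 and 3 input tags in the windows of the respective list. In the GRCh38 annotation *DERL3*, which encodes a protein of endoplasmic reticulum-associated degradation, overlaps *SMARCB1* on its end side, on the opposite strand. The start of *DERL3* was not placed in hg19 here, so the distance of the region from that start was not measured. The region is therefore not assigned to either gene.

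The *SMARCB1* promoter held a double peak. Replicate 1 had separate peaks with summits at -53 bp and 456 bp, whereas replicate 2 had 1 peak across both, with its summit at 394 bp. The BED lists divided it in both replicates. The peak near the start had 29 and 23 tags, and the downstream one had 31 and 29 tags. Upstream, shared regions were present at -2.3 kb, -5.3 kb and -9.5 kb, with fold enrichments of 14.5 and 6.90, 13.2 and 14.7, and 18.9 and 11.5. All 5 *SMARCB1* regions were shared, and none had its summit between the promoter and the end of the gene. *MMP11*, a matrix metalloproteinase gene, is the neighbor on the start side in GRCh38. It was not placed in hg19 here, so the upstream regions are not assigned to either gene.

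At *ARID2*, the PBAF subunit whose loss the study examined, binding was concentrated ahead of the start. The strongest region lay on chromosome 12 from 46121195 to 46121812, at -2.0 kb, with fold enrichments of 20.9 and 19.3. The BED peak there had 40 tags in replicate 1 (28.6 to 54.5) and 31 in replicate 2 (21.1 to 44.0). Input DNA had 0 tags in either window. Against the 3 tags that a count of 0 allows in the input library, the observed ChIP counts, scaled to library totals, were 23.6-fold and 30.2-fold higher. These ratios leave out the counting error of the ChIP tags, so they cannot be compared with the exact intervals given for *SMARCA4*. The promoter region, from 46122473 to 46123012, had summits at -941 bp and -947 bp, with 26 and 24 tags and again 0 input tags. No *ARID2* peak of either replicate lay within 500 bp of the start, and the nearest edges were 608 bp and 693 bp from it. The noncoding RNA gene *LINC00938* is the neighbor on that side in GRCh38, on the opposite strand. Its start was not placed in hg19 here, so the regions ahead of the *ARID2* start are not assigned to either gene.

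Within the *ARID2* gene, occupancy was sparse. Replicate 1 had 4 peaks there with fold enrichments from 3.74 to 6.95, and replicate 2 had 1 peak with 4.49. The only shared region inside the gene was at 32.9 kb, with 4.81 and 4.49. Past the end, a region 6.3 kb beyond the gene had 10.7 in replicate 1 and 5.13 in replicate 2, and its summits differed by 1 bp. Of the 8 *ARID2* regions, 4 were shared. The strongest region found in replicate 1 only was at 50.3 kb, with 13 tags. Scaled to the depth of replicate 2 this equals 7.88 tags, and the lowest tag count in the whole BED list of replicate 2 was 6. Whether depth played a part was not tested.

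At *PBRM1*, another PBAF subunit gene that lies on the minus strand, the start was flanked by a pair of shared regions. The upstream region had summits at -148 bp and -116 bp and fold enrichments of 11.8 and 10.3. The downstream one had summits at 256 bp and 298 bp and values of 9.09 and 8.34. The upstream region had 21 tags in replicate 1 (13.0 to 32.1) and 16 tags in replicate 2 (9.15 to 26.0), with 0 input tags. In GRCh38 *GNL3*, a nucleolar GTPase gene, runs in the opposite direction and overlaps *PBRM1* at its start. Binding at the shared start cannot be assigned to either gene.

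Stronger *PBRM1* regions lay farther away. A region 14.8 kb inside the gene, on chromosome 3 from 52704684 to 52705268, had 24.1-fold enrichment in replicate 1 and 16.0-fold in replicate 2, with 43 and 25 tags. A region 8.9 kb past the gene end, from 52570268 to 52570777, had 20.3 and 21.2, with 40 tags (28.6 to 54.5) and 32 tags (21.9 to 45.2). Input DNA had 0 tags in both regions. *UQCC5*, a mitochondrial assembly factor gene, overlaps *PBRM1* on its end side in GRCh38. It was not placed in hg19 here, so the region past the gene end is not assigned to either gene. Regions at 3.7 kb and 79.0 kb were weaker, with values from 5.13 to 7.70, and 6 of 8 *PBRM1* regions were shared.

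*ARID1A*, which encodes the large ARID subunit of BAF, had the most peaks and the weakest promoter. The promoter region had summits at -528 bp and -464 bp, and it was the only promoter that was absent from the BED lists of both replicates. A neighboring peak had its summit at 909 bp in replicate 1 and at 1158 bp in replicate 2. The replicate 2 peak began 1015 bp from the start and thus fell just outside the promoter window. The strongest regions flanked this stretch or lay within the gene. Their fold enrichments were 17.0 and 12.7 at -2.9 kb, 17.1 and 13.5 at 2.2 kb, 17.7 and 19.3 at 27.7 kb, and 17.7 and 13.9 at 75.8 kb. The region at 27.7 kb, on chromosome 1 from 27049762 to 27050451, had 31 tags (21.1 to 44.0) and 29 tags (19.4 to 41.6), with 0 input tags.

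Past the end of *ARID1A*, 6 regions lay within 8 kb, and 4 of them were shared, at 2.1 kb, 4.9 kb, 6.1 kb and 7.2 kb beyond the gene. Their fold enrichments were between 7.22 and 11.6. *PIGV*, which encodes a mannosyltransferase of GPI anchor synthesis, is the next gene on this side in GRCh38. It was not placed in hg19 here, so the regions past the end are not assigned to either gene. Of all 19 *ARID1A* regions, 13 were shared. The 6 others were replicate 1 peaks with values from 4.28 to 6.70.

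**Figure D2:**
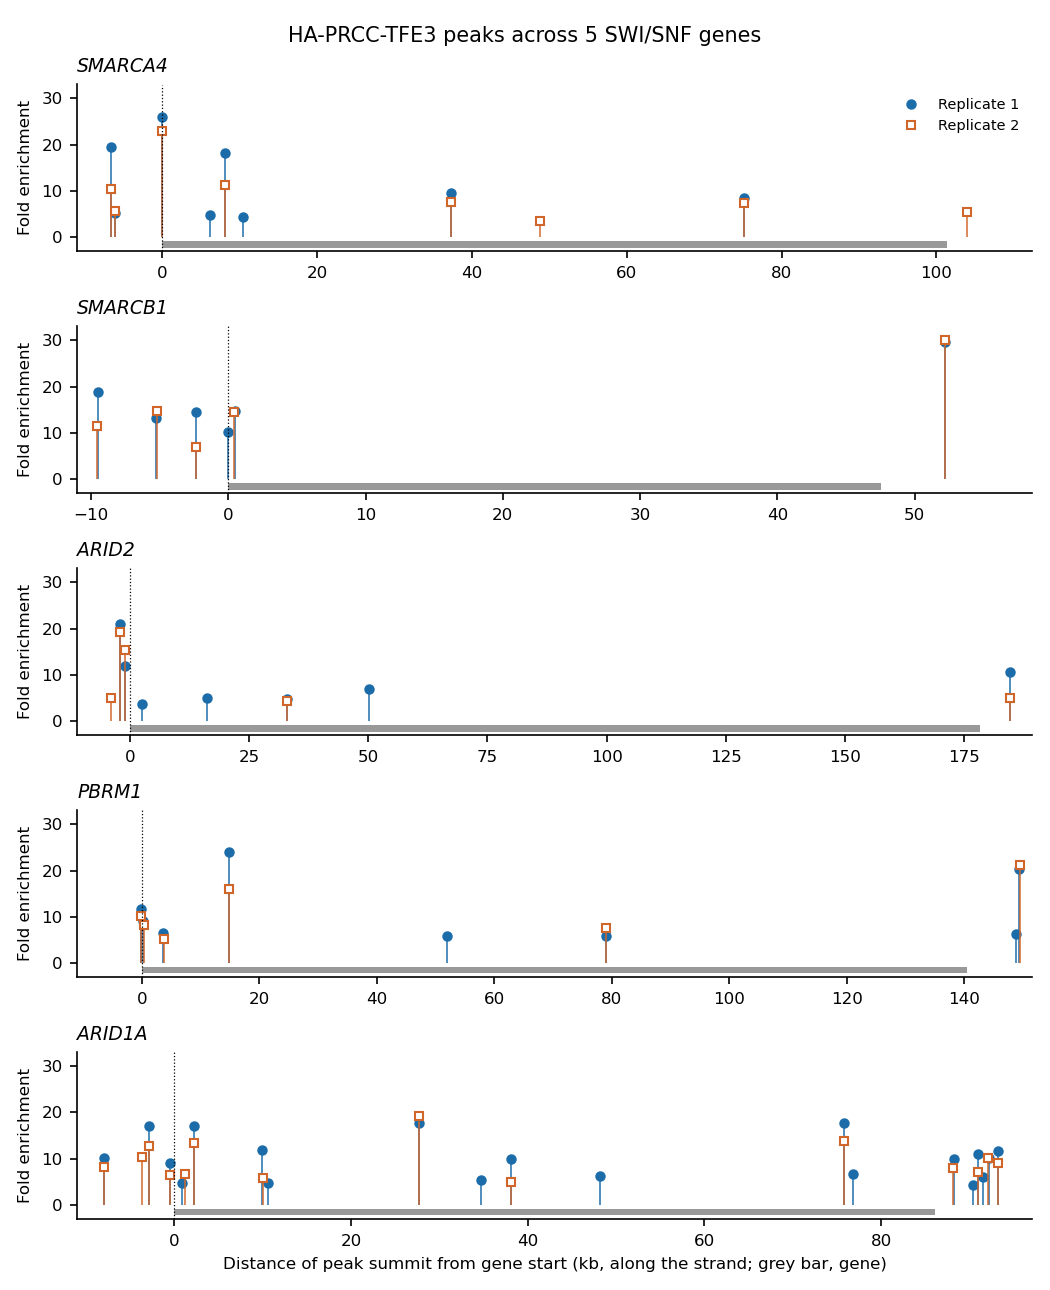
NarrowPeak peaks at 5 genes, with the distance of each summit from the gene start along the strand in kb (x axis), the fold enrichment (y axis) and a grey bar for the gene. Filled blue circles are replicate 1 and open orange squares are replicate 2. The tallest markers were near the start for *SMARCA4* and *ARID2*, past the end for *SMARCB1*, at 14.8 kb and past the end for *PBRM1*, and spread across the gene for *ARID1A*.

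The genes were then ordered by their strongest shared region, which is the region with the highest fold enrichment in the replicate where it was lower. The order was *SMARCB1* with 29.7 and 30.1, *SMARCA4* with 25.9 and 23.0, *PBRM1* with 20.3 and 21.2, *ARID2* with 20.9 and 19.3, and *ARID1A* with 17.7 and 19.3. The values of *SMARCB1*, *SMARCA4* and *PBRM1* did not overlap with each other between the replicates. Those of *PBRM1* and *ARID2* overlapped, and *ARID2* and *ARID1A* had the same value in replicate 2. In tags, the intervals of neighboring genes in this order overlapped in each replicate. The regions of *SMARCB1* and *PBRM1* lay past the gene end, on the side where *DERL3* and *UQCC5* overlap these genes in GRCh38. That of *ARID2* lay ahead of its start, on the side of *LINC00938*. The order thus describes the genes with their flanks, and it differs from the order of the promoters, where *SMARCA4* came first.

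Next, the number of peaks was set against the length of each gene and its flanks. In replicate 1 there were 179.0 peaks per Mb at *ARID1A*, 88.8 at *SMARCB1*, 65.9 at *SMARCA4*, 49.8 at *PBRM1* and 35.3 at *ARID2*. In replicate 2 the values were 132.0, 74.0, 65.9, 37.4 and 25.2 in the same order. Across all chromosomes, up to the last peak on each, the density was 35.3 peaks per Mb in replicate 1 and 26.3 in replicate 2. *ARID1A* thus had 5.08 and 5.02 times the genome density, and *ARID2* had 1.0 and 0.96 times. Among all adjoining windows of the same length, 1.34% in replicate 1 and 2.17% in replicate 2 held at least as many peaks as *ARID1A*. For *SMARCB1* these shares were 14.3% and 13.0%, for *SMARCA4* 20.7% and 13.6%, for *PBRM1* 29.3% and 29.0%, and for *ARID2* 40.4% and 40.9%. The windows and the genome density cover all sequence up to the last peak and not genes alone. Without the flanks, *ARID1A* had 116.0 and 69.7 peaks per Mb, *SMARCA4* 59.2 and 49.3, and *PBRM1* 42.7 and 35.6. *SMARCB1* had 42.1 and 21.0, and *ARID2* had 22.4 and 5.61. The place of *SMARCB1* after *ARID1A* thus held only with the flanks, and its replicate 2 value without them lay below the genome density.

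The surroundings were compared in the same way, in the next 500 kb on both sides, a distance that was chosen after the counts were seen. These had 103.0 and 95 peaks per Mb at *ARID1A*, which was lower than the 179.0 and 132.0 of the gene with its flanks. Without the flanks the direction turned in replicate 2, where the gene had 69.7. At *SMARCA4* the surroundings had 141.0 and 110.0, above the gene both with its flanks, at 65.9 in both replicates, and without them, at 59.2 and 49.3. The surroundings of *SMARCB1* had 77.0 and 65.0, below the gene with its flanks but above the gene without them, at 42.1 and 21.0. Those of *PBRM1* had 60.0 and 51.0, and those of *ARID2* 41.0 and 30.0. Each gene is a single stretch of the genome, so these densities were compared without a test.

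**Figure D3:**
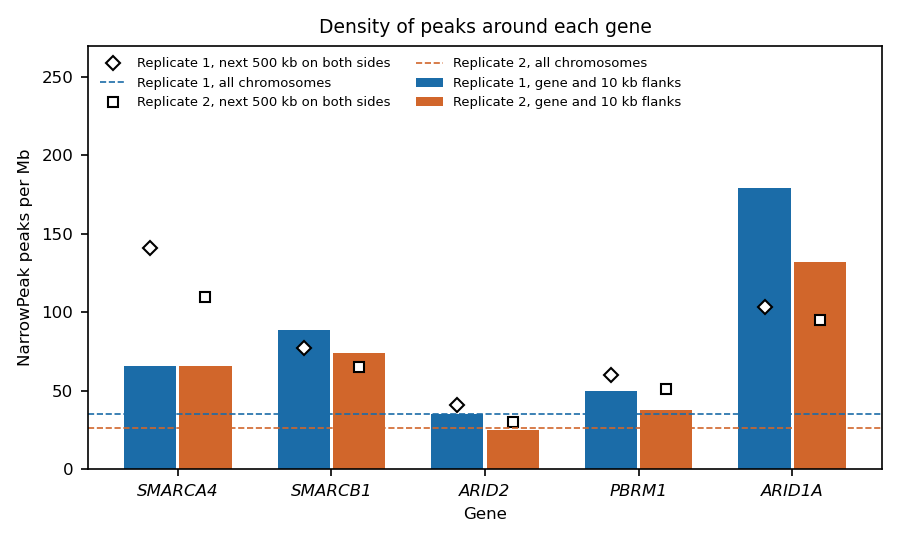
Bars give narrowPeak peaks per Mb (y axis) in each gene with 10 kb flanks (x axis) for replicate 1 (blue) and replicate 2 (orange), open diamonds and squares give the next 500 kb on both sides, and dashed lines give all chromosomes (35.3 and 26.3). The *ARID1A* bars, at 179.0 and 132.0, stood above their surroundings, whereas the *SMARCA4* bars, both at 65.9, stood below theirs.

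The peaks of the 5 genes were also described as a group. Their median fold enrichment lay at percentile 66.8 of all peaks in replicate 1 and 62.6 in replicate 2, where the median was 8.77, compared with 7.32 over all peaks. Their median widths were 322.5 bp and 318.0 bp, compared with 280.0 bp and 284.0 bp. A q value below 1e-05 was held by 41 of 48 peaks in replicate 1 and 32 of 38 in replicate 2, compared with 82.4% and 78.2% of all peaks. The group holds only 5 loci and was not compared with other groups of genes.

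Overlap between the replicates was examined next. Of the replicate 1 peaks at these genes, 35 of 48 (72.9%; 95% Wilson interval, 59.0% to 83.4%) overlapped a replicate 2 peak, compared with 65.3% of all replicate 1 peaks. Of the replicate 2 peaks, 35 of 38 (92.1%; 79.2% to 97.3%) overlapped a replicate 1 peak, compared with 88.5% of all. Both genome-wide shares lay within the intervals. The intervals take peaks as independent, although they cluster at the same few genes, and both shares count the same overlaps. Of the union regions, 34 of 50 were shared, compared with 59.8% of all. The 13 peaks found in replicate 1 only had a median fold enrichment of 5.35 and a maximum of 6.95, whereas those that overlapped had a median of 11.8. The 3 peaks found in replicate 2 only had values of up to 5.52. The library totals, recovered from the lists, were 12235754 tags in replicate 1 and 7418533 in replicate 2. Across the 36 overlapping pairs of peaks, summits were separated by a median of 33.5 bp, compared with 32.0 bp genome-wide.

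Tag counts were then compared between the replicates at BED peaks that could be matched. There were 26 such peaks at the 5 genes, with 814 tags in replicate 1 and 557 in replicate 2. After scaling to the library totals, replicate 2 over replicate 1 had a median of 1.12, compared with 1.10 over all 55655 matched peaks. The lowest ratio was 0.628 at *ARID1A* 9.9 kb inside the gene, from 21 and 8 tags (95% exact interval, 0.241 to 1.48). The highest was 1.81 at *PBRM1* 79.0 kb inside the gene, from 10 and 11 tags (0.70 to 4.77). By a two-sided exact binomial test against the common split, with Benjamini-Hochberg adjustment over all matched peaks, 0 of the 26 peaks differed, compared with 0.0% of all. At an unadjusted p under 0.05, 0 of the 26 differed, compared with 2.2% of all, or 1227 peaks. The lowest unadjusted p was 0.0932, at *SMARCA4* -6.6 kb with 38 and 15 tags (exact binomial test, adjusted p = 1.0). The interval of the most deeply covered peak, past the end of *SMARCB1*, reached from 0.887 to 1.87 around an observed ratio of 1.29. It does not give the smallest difference that the adjusted test could call. With adjustment over 55655 peaks, larger differences could also go uncalled, so the result does not show that the replicates were equal. These peaks are in both lists. The test sets 1 library against another and takes tags as independent, so its p-values cover counting error only and hold no estimate of the spread between replicates, which the study calls biological.

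**Figure D4:**
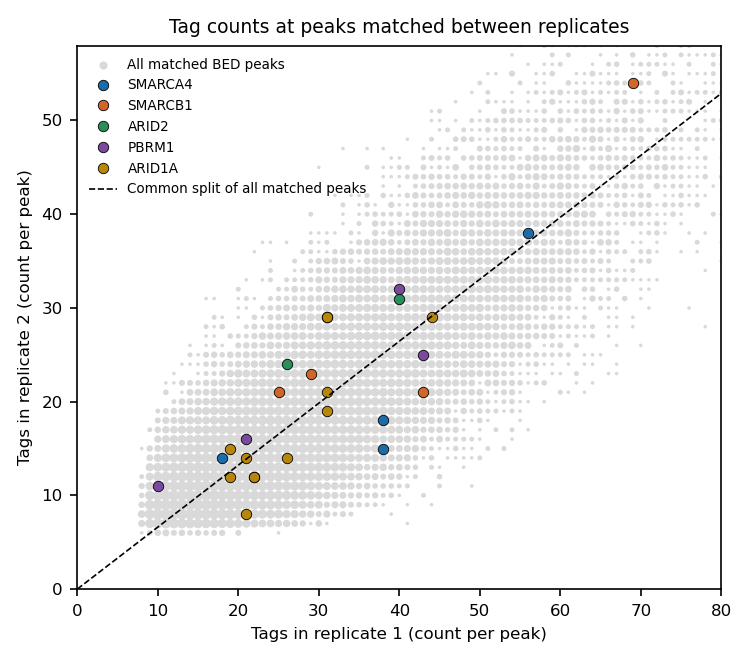
Tags per BED peak in replicate 1 (x axis) and replicate 2 (y axis) for the 26 matched peaks at the 5 genes (colored, a few at the same position) and for all matched peaks within the axes (grey, larger where more peaks coincide). The dashed line is the common split of 39.8% of tags in replicate 2, and the colored points lie on both sides of it within the grey field.

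Input DNA was the background. No input peak, of 286 in all, overlapped any of the genes or their flanks, which tells little with so few peaks in the whole list. The BED peaks at these genes contained 971 tags in replicate 1 and 583 in replicate 2, and the same windows contained 32 and 33 input tags. The mean was 0.865 input tags per peak (95% exact Poisson interval, 0.592 to 1.22) for the 37 peaks of replicate 1 and 1.18 (0.811 to 1.66) for the 28 peaks of replicate 2. Over all BED peaks it was 0.874 and 0.876. Input tags were absent from 21 of 37 and 13 of 28 peaks, compared with 46.1% and 46.9% of all peaks. At *ARID2*, 0 input tags were found in the 5 BED peaks of replicate 1 and the 2 of replicate 2. At *SMARCA4*, 12 and 17 input tags were found in 5 and 6 BED peaks. The input library held 21695179 tags, and both ChIP lists were set against it, so their input values are not independent.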

How the data were processed

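ChIP-seq peaks of HA-PRCC-TFE3 in doxycycline-treated HK-2 cells were taken from 2 ChIP libraries and 1 input DNA library, and groups were taken from the sample titles. The authors deposited peak lists called for each sample separately. According to the methods, MACS in Strand NGS was used with input DNA as the comparison, with a p-value cutoff whose printed form is ambiguous, so peak numbers describe the lists as deposited. The aligner and the handling of duplicates are not given in the sources used here, and hg19 is named in the submitters' processing notes. At the 5 GRCh38 gene starts, 1 gene, *ARID2*, had a peak, and in replicate 1 only. At the hg19 starts, 5 genes had a peak in both replicates.

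The deposited narrowPeak lists gave fold enrichment (a ratio), −log10 p and q values, and a score. Their lowest −log10 q values were 1.31 and 1.35. The deposited BED lists have displaced header names and were read by column position, on the assumption that they follow the layout of a HOMER findPeaks table, a tool that is not named in the sources used here. All tag counts, input tags and ratios over input rest on this reading. Read so, these deposited lists gave tag counts, a signal per 10000000 tags, scaled input signal, fold over input, p-values, a score and a focus fraction. The fraction was not used. The input DNA list has the same layout. Library totals were tag counts over scaled signal. Input tags were recovered from tag count over fold, and 100.0% of the values in both lists came out whole within 0.1 tags.

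NarrowPeak lists were the main lists, with a minimum overlap of 1 bp. Per gene, the regions to be named were all peaks in the promoter window, the shared region whose lower fold enrichment of the replicates was highest, and peaks that overlapped input peaks or differed between replicates, of which there were 0. Other regions were added after their values were seen. The members and lists were chosen with earlier results of these data known. Other SWI/SNF subunit genes, exons and introns, and genes with a like pattern were not analysed here, because they need an hg19 annotation. The binomial test was run on simulated tag counts in which only peaks with many tags were changed, so it does not cover member peaks with few tags. Alternatives covered the window, list, q cutoff, overlap and each replicate. Python 3.11.15, numpy 2.4.6, scipy 1.17.1 and pandas 2.3.3 were used.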

Additional observations from a re-analysis of the deposited data

How the results depend on the processing

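Of 60 alternative values for the totals over the 5 genes, 48 stayed within the limits and 12 moved, where counts were allowed a factor of 1.5, shares their interval and fold enrichment the spread between replicates. Without the 10 kb flanks, the peaks numbered 28 in replicate 1 and 18 in replicate 2, and the regions 28, with 17 shared. With q below 1e-10, they numbered 30 and 22, and the regions 29, with 21 shared. Both settings count fewer peaks by construction. Recovery of replicate 2 peaks was 100% with q below 1e-10 and 78.9% with reciprocal overlap of 50%, and the cause was not tested. The median lower-of-both fold enrichment of shared regions was 9.64. With 1 replicate left out it was between 9.70 and 11.8, and the fold over input of the BED lists gave 52.6 at matched peaks, which is another scale. With either replicate left out the regions numbered 38 to 48. Promoter occupancy in both replicates covered 4 genes with a window of 500 bp, which left out *ARID2*, and 4 genes with the BED lists or with q below 1e-10, which left out *ARID1A*. Of the 60 alternative counts per gene, 42 stayed within the factor. *ARID2* in replicate 2 had 5 peaks, compared with 2 with the BED list or a stricter q and 1 without flanks. No paired analysis was possible because replicate numbers are given for the ChIP libraries alone and input DNA has none. The library of replicate 2 was smaller, with 7418533 tags, and the part of depth in peaks missing from its list was not tested.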
